A study of Mus musculus with 4 samples.

Results

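Oligodendrocyte precursor cells (OPCs), the dividing progenitors from which the myelinating cells of the brain arise, are defined by a small set of genes. Here 8 such genes and both classical PDGF ligands are described in the embryonic mouse cortex with and without Mek1. The genes are Pdgfra, Olig1, Olig2, Gpr17, Cspg4, Nkx2-2, Lhfpl3 and Gng12, and the ligands are Pdgfa and Pdgfb. They were listed by name with earlier results of these data known, and are the features of the array that carry 1 of these gene symbols, so their ranks and counts below are a description. Each of the 10 genes had 1 such feature among 19938 named genes, and all 10 were among the 13956 genes bright enough to be tested.

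Dorsal cortex was taken at E18.5 (E for embryonic day), and RNA was measured on 4 single-colour whole-transcript arrays. The 2 control samples had the genotype Mek1fl/wt, Mek2-/-, with a floxed and a wild-type allele of Mek1. The 2 mutant samples were Mek1fl/fl, Mek2-/- and carried NestinCre, which expresses Cre recombinase in neural progenitors and the cells that descend from them. Mek2 was thus lost in both groups, although the design text calls the controls wild type, and the contrast is the loss of Mek1 together with the presence of the Cre transgene, which cannot be told apart. Cells outside the neural lineage, such as endothelium and microglia, are mostly not targeted by it. MEK1 and MEK2 activate the kinases ERK1 and ERK2.

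PDGF-A, which neurons and astrocytes secrete, binds the receptor tyrosine kinase PDGFRA on OPCs, and signalling through RAS, RAF, MEK and ERK is one of the routes by which it sustains their division and survival. OLIG1 and OLIG2 are basic helix-loop-helix transcription factors, encoded by neighbouring genes, that bind E-box sequences and specify the oligodendrocyte lineage. Many OPCs of the embryonic cortex migrate in from the ventral forebrain, and dorsal progenitors add their own around birth. In whole tissue, fewer cells of a type and less RNA per cell cannot be told apart.

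Pdgfra was 6.23-fold lower in the mutants, the largest decrease among the 13956 genes tested. Olig1, 4.46-fold lower, had the third largest decrease and Olig2, 3.61-fold lower, had the fourth, although Olig2 did not pass the test. In all, 4 of the 10 genes fell (Pdgfra, Olig1, Gpr17 and Gng12) and 0 rose at an adjusted p under 0.05 in limma, against a background of 1.01% of all tested genes called lower and 0.0143% called higher. At an unadjusted p under 0.05 in limma, 6 were lower and 0 higher, against 7.69% and 5.73% of all tested genes. Pdgfra, Olig2 and Gpr17 had mutant means (6.15, 6.01 and 5.84) under the level required for testing (6.16). They thus entered the test through their level in controls, and these counts are a description. Leaving out control 1 left 2 of the 10 called, leaving out control 2 left 1, leaving out mutant 2 gave 6, and keeping dim genes in the fit gave 1. With embryo sex, read from sex-linked genes, as a block (control 1 with mutant 2, control 2 with mutant 1; added after seeing the data), 1 of the 10, Pdgfra, was called. The median difference of the 10 genes was -0.50 on the log2 scale, and that of all tested genes was 0.01. Both PDGF ligands, the proteoglycan gene Cspg4 and the transcription factor gene Nkx2-2 did not pass, with intervals given below.

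The RefSeq promoter table (GRCm38.p6) held 9 start sites of 7 of the 10 genes. The 250 bases before the start are shown for 3 genes that were lower in the mutants, Pdgfra, Olig2 and the upstream start of Gng12, and for Cspg4, whose groups overlapped, so that a reader can set the letters beside the values. Sequences run 5′ to 3′ towards the start site. Capitals mark the E-box CANNTG, to which basic helix-loop-helix factors such as OLIG2 bind, the ETS core CCGGAA, recognised by transcription factors that ERK signalling controls, and the TATA motif TATAAA, each searched on both strands.
Pdgfra (chr5:75152001-75152250, plus strand): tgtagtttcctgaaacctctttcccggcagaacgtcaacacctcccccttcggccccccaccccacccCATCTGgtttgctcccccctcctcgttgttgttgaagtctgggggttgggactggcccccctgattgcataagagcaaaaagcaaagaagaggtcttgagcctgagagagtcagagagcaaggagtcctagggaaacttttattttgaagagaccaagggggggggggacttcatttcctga
Olig2 (chr16:91225300-91225549, plus strand): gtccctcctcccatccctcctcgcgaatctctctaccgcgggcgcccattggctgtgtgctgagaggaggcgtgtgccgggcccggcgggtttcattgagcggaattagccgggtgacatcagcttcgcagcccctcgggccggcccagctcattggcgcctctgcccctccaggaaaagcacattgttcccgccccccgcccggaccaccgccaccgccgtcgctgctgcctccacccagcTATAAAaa
Gng12 (chr6:66896147-66896396, plus strand): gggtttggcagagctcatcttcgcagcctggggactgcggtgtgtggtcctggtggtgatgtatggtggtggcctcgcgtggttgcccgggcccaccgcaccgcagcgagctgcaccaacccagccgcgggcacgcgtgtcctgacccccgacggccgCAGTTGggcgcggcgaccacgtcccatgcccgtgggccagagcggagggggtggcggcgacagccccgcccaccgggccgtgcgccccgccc
Cspg4 (chr9:56864854-56865103, plus strand): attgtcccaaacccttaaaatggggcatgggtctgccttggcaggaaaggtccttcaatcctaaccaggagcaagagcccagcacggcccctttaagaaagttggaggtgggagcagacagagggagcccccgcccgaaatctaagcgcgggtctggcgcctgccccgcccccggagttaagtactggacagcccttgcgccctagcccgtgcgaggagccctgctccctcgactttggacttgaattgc
The Pdgfra window held 1 E-box, CATCTG, beginning 182 bases before the start, and the Gng12 window shown held 1, CAGTTG, at 92 bases. Olig2 had TATAAA beginning 8 bases before the start. Cspg4 had a match to none of these 3 motifs. Over the 9 windows, 4 held an E-box and 1, that of Lhfpl3, held CCGGAA. The Nkx2-2 window held 3 E-boxes, the most of the 9. The other start of Gng12, which is not shown, had a match to none of the 3 motifs. Among the 32851 promoter windows of the table, 66.2% held an E-box, 12.03% held CCGGAA and 12.4% held TATAAA. These matches describe the letters in the window and were not tested against the expression values.

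Pdgfra, the receptor through which OPCs respond to PDGF-A, was at 8.97 and 8.61 on the log2 scale in controls 1 and 2, and at 6.01 and 6.29 in mutants 1 and 2. The groups stood far apart: the higher mutant lay 2.31 below the lower control, whereas the arrays within a group differed by 0.37 and 0.28. The group means were 8.79 ± 0.26 and 6.15 ± 0.20 (SD, n = 2 each), a difference of -2.64 ± 0.15 (SE) with a 95% interval from -3.02 to -2.26 (limma, adjusted p = 0.00934). Pdgfra remained below the threshold under each of the 12 other settings tried, including those that left out 1 array, with an adjusted p between 0.000665 and 0.0402 in limma.

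**Figure D1:**
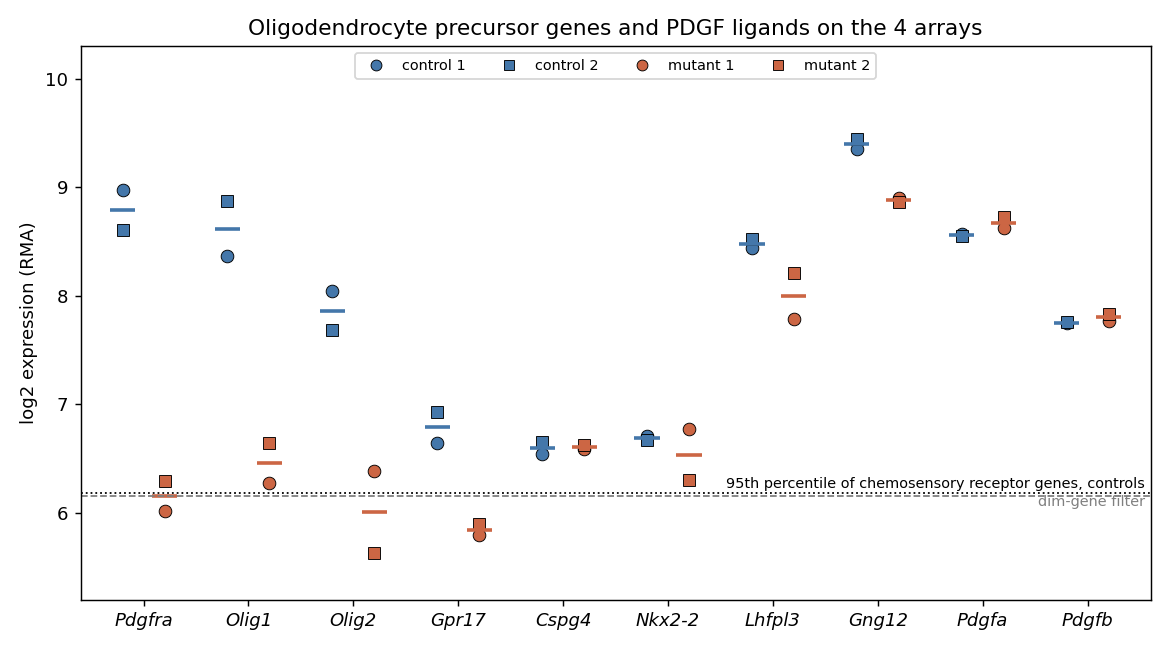
Log2 expression (vertical axis, RMA values as deposited) of the 10 genes on each of the 4 arrays; blue marks controls and orange mutants, circles replicate 1 and squares replicate 2, and short bars are group means of 2 arrays. In the mutants Pdgfra, Olig1, Olig2 and Gpr17 lie near the dashed line at 6.16, the filter on dim genes, and the dotted line at 6.18, the 95th percentile of chemosensory receptor genes in controls; Pdgfa and Pdgfb differ by 0.11 and 0.05.

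Gpr17, a G protein-coupled receptor of precursors committed to differentiate, was at 6.65 and 6.93 in the controls and at 5.79 and 5.89 in the mutants. Both mutants were below both controls, from a level in controls that was itself modest. It fell 1.92-fold (difference -0.94 ± 0.11 SE; limma, adjusted p = 0.0331). Without control 1 its adjusted p was 0.0847 and without control 2 it was 0.133 in limma, with dim genes kept it was 0.0822, and with embryo sex as a block it was 0.0704.

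Olig1, a lineage transcription factor that also promotes maturation, was at 8.36 in control 1, 8.87 in control 2, 6.28 in mutant 1 and 6.64 in mutant 2. The groups were separated by 1.72, more than the 0.51 between the controls and the 0.37 between the mutants. The means were 8.62 ± 0.36 and 6.46 ± 0.26 (SD, n = 2 each), a difference of -2.16 ± 0.20 (SE; limma, adjusted p = 0.0251). The call was lost without control 2 (limma, adjusted p = 0.0678), when dim genes were kept in the fit (limma, adjusted p = 0.0660) and with embryo sex as a block (limma, adjusted p = 0.0540).

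Olig2, which is required to specify the lineage, was at 8.05 and 7.68 in controls and 6.39 and 5.63 in mutants. Again both mutants lay below both controls, by 1.29, but the mutants differed from each other by 0.76, the widest spread among the 10 genes. The difference was -1.85 ± 0.26 (SE), with a 95% interval from -2.52 to -1.19, and it did not pass over all genes (limma, adjusted p = 0.0567). It passed in 5 of the 11 other fits that tested it, and its adjusted p in limma ran from 0.00209 without mutant 1 to 0.257. The arrays did not order Olig1 and Olig2 alike: mutant 1 was the lower mutant for Olig1 and the higher for Olig2, and control 1 was the lower control for Olig1 and the higher for Olig2.

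Nkx2-2, a homeodomain factor that acts with OLIG2 in differentiating precursors, was at 6.71 and 6.67 in controls and at 6.77 and 6.30 in mutants. Mutant 1 was above both controls and mutant 2 below both. The difference was -0.15, with a 95% interval from -0.54 to 0.24 (limma, adjusted p = 0.750). Its level in controls, 6.69, was little above the background guide given below. Gpr17, with a control mean of 6.79, differed by -0.94. Whether a low level limited the decrease that Nkx2-2 could show was not tested. The sign of the Nkx2-2 difference turned without mutant 2.

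Cspg4 encodes the NG2 proteoglycan, a surface marker of OPCs that pericytes also carry. It was at 6.54 and 6.65 in controls and at 6.59 and 6.62 in mutants, and the groups overlapped. The difference was 0.01, with a 95% interval from -0.15 to 0.17 (limma, adjusted p = 0.973), and its sign turned without control 1 and without mutant 2. Of the chemosensory receptor genes used below as a guide to background, 97.5% were dimmer than Cspg4 in each group, so its level was modest. Whether that level limited the size of its difference was not tested.

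Pericyte markers were measured beside it. Of 7 on the list, 6 were tested and 0 passed in limma in either direction (0 lower and 2 higher at an unadjusted p under 0.05, against 7.69% and 5.73% of all tested genes), with a median difference of 0.11. The mean level of the list was between 7.61 and 7.70 in controls and between 7.67 and 7.81 in mutants. Anpep, an aminopeptidase of pericytes, was dim on all arrays (mean 5.79 in controls and 5.74 in mutants). The part of pericytes in the Cspg4 signal was not tested.

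Lhfpl3, a tetraspan membrane protein enriched in OPCs, was at 8.44 in control 1, 8.52 in control 2, 7.78 in mutant 1 and 8.21 in mutant 2. The groups did not overlap, but the mutants were uneven, with mutant 1 lower than the control mean by 0.70 and mutant 2 by 0.27. The difference was -0.48 ± 0.14 (SE) and did not pass (limma, adjusted p = 0.256). It passed in 1 of 12 other fits, the one without mutant 2 (limma, adjusted p = 0.00464).

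Gng12, a G protein gamma subunit that is not confined to OPCs, was the most even of the genes that fell. It was at 9.35 and 9.44 in controls and at 8.90 and 8.86 in mutants, with both mutants lower by about the same amount. It fell 1.43-fold (difference -0.51 ± 0.06 SE; limma, adjusted p = 0.0409). The call was lost without control 1 (limma, adjusted p = 0.207), without control 2 (adjusted p = 0.251 in limma), when dim genes were kept (adjusted p = 0.102 in limma), with embryo sex as a block (adjusted p = 0.0828 in limma) and with each array centred on its median (adjusted p = 0.0514 in limma).

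Neither ligand passed the test. Pdgfa was at 8.57 and 8.55 in controls and 8.62 and 8.72 in mutants. Both mutants were slightly above both controls, with a difference of 0.11 and a 95% interval from -0.04 to 0.27 (limma, adjusted p = 0.510). Pdgfb, made mainly by endothelium and also by neurons, was at 7.74 and 7.76 in controls and 7.77 and 7.83 in mutants, with a difference of 0.05 and an interval from -0.09 to 0.19 (limma, adjusted p = 0.781). For neither ligand did the interval reach a decrease of 0.1 on the log2 scale, and neither passed in any of the 12 other fits.

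**Figure D2:**
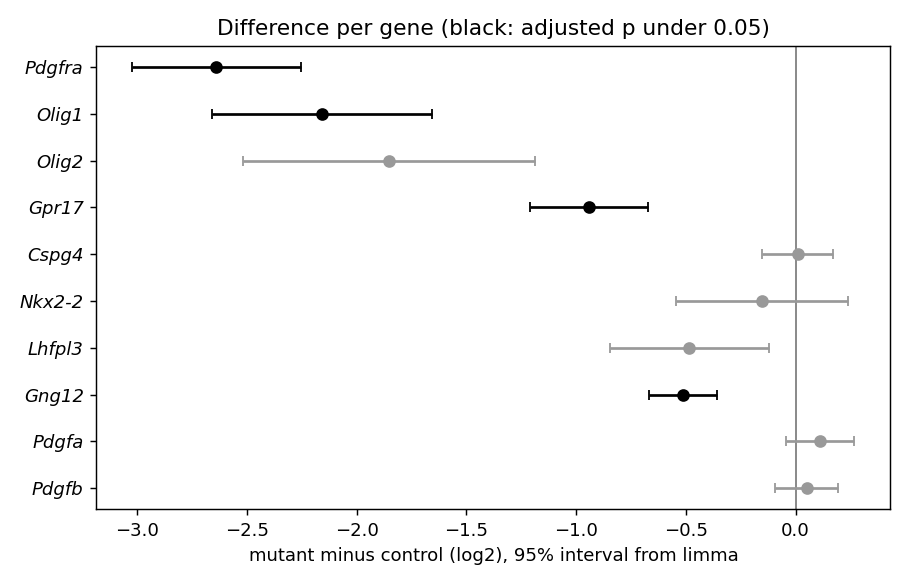
Difference between mutant and control means per gene (horizontal axis, log2) with the 95% interval of limma's moderated fit over 2 arrays a group; black marks an adjusted p under 0.05 and grey the rest. The intervals of Pdgfra, Olig1, Olig2, Gpr17, Lhfpl3 and Gng12 lie below 0, and those of Cspg4, Nkx2-2, Pdgfa and Pdgfb include it; the interval of a single gene is not adjusted for the number of genes tested.

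In 6 of the 10 genes both mutants lay below both controls, as did 21.4% of all genes tested. In 2, the ligands, both lay above, as did 22.8% of all genes tested, and in 2, Cspg4 and Nkx2-2, the groups overlapped. A decrease of 1 or more on the log2 scale with the groups apart was seen in Pdgfra, Olig1 and Olig2, and in 0.244% of all genes tested. Mutant 1 was lower than mutant 2 in 7 of the 10 genes, and the exceptions were Olig2, Nkx2-2 and Gng12. The share of all tested genes with that order was not counted, so it cannot be called a trait of these genes. With 2 arrays a group, an exact two-sided permutation test of a single gene cannot go below p = 0.333.

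**Figure D3:**
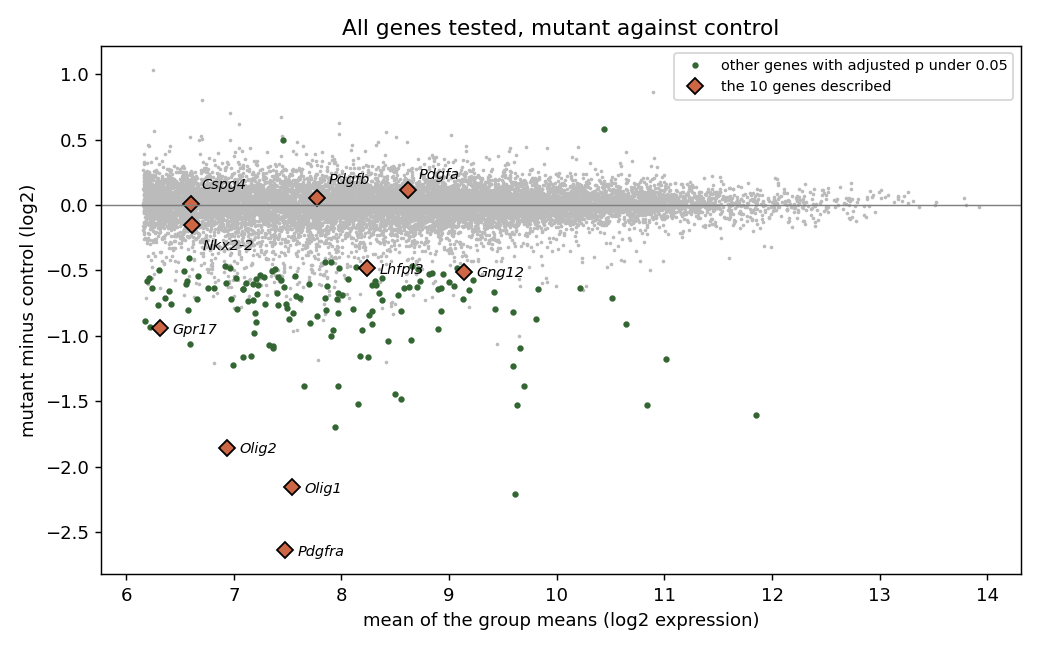
Difference between mutant and control (vertical axis, log2) against the mean of the group means (horizontal axis, log2 expression) for the 13956 genes tested; green points are other genes with an adjusted p under 0.05 and orange diamonds are the 10 genes. Pdgfra at -2.64 is the lowest point of the plot, and Olig1 and Olig2 are the third and the fourth lowest.

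Several of these genes came close to background in the mutants. As a guide, 1194 olfactory and vomeronasal receptor genes, which serve chemical sensing in the nose and are mostly silent in cortex, had a 95th percentile of 6.18 in controls and 6.26 in mutants. By that measure 0 of the 10 genes were near background in both groups, and 3 were so in mutants alone: Pdgfra (6.15), Olig2 (6.01) and Gpr17 (5.84). The mutant mean of Olig1, 6.46, exceeded 96.3% of the receptor genes. Features differ in their response, so this range is a guide and not a detection limit, and the mutant levels do not show whether these transcripts were absent. The mean of Pdgfra, Olig2 and Gpr17 in mutants lay under the filter on dim genes (6.16), so they entered the test through their level in controls.

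The genes with the pattern most like that of Pdgfra over the 4 arrays, measured as the Euclidean distance between deviations from each gene's own mean, were Tnc, Olig1, Acsbg1, Fabp7 and Olig2, in that order. Tnc, an extracellular matrix protein, was at a distance of 0.47 and had values of 10.78 and 10.65 in controls and 8.30 and 8.71 in mutants. Olig1 was at 0.79, Acsbg1, an acyl-CoA synthetase of glia, at 1.04, Fabp7, a fatty acid binding protein of radial glia, at 1.06, and Olig2 at 1.07. Gpr17 was the 42nd nearest and Pdgfa the 11723rd. Because the measure weighs the size of a difference, it brings forward genes with the largest decreases.

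Of the genes that adjoin Pdgfra and the Olig pair in the RefSeq gene order and were tested, none passed in limma, at adjusted or unadjusted p. On either side of Pdgfra, Kit, a related receptor, differed by 0.06 (limma, adjusted p = 0.747) and Chic2 by -0.07 (limma, adjusted p = 0.668), while Gsx2 was too dim to test. Next to Olig1, Ifnar2, an interferon receptor chain, differed by 0.10 (limma, adjusted p = 0.606). On the side of Olig2, the adjoining gene 4932438H23Rik was too dim to test. Paxbp1, the gene beyond it, differed by 0.06 (limma, adjusted p = 0.733). Kit, at 9.52 and 9.45 in controls and 9.56 and 9.53 in mutants, had its mutant arrays above its controls.

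Further OPC markers did not pass the test. Of 16 on the list, 15 were measured, 13 were bright enough to test and 0 passed in limma in either direction, with 3 lower and 0 higher at an unadjusted p under 0.05 (7.69% and 5.73% of all tested genes). The median difference was 0.00, against 0.01 for all genes. The smallest p belonged to Ptprz1, a receptor phosphatase shared with radial glia, which was at 11.15 and 11.09 in controls and 10.68 and 10.56 in mutants (difference -0.49; limma, adjusted p = 0.0517). Sox8, a SoxE factor, differed by -0.59 (limma, adjusted p = 0.0699), and Sox10, a SoxE factor specific to the lineage, by -0.28 (limma, adjusted p = 0.172). For these 3 genes and Sox6, 4 of the 13 tested, both mutants lay below both controls, against 21.4% of all tested genes. In 1, Vcan, both lay above, against 22.8% of all tested genes. Several of the other markers are shared with neurons, among them Fyn, Tnr and Vcan, which differed by 0.01, 0.11 and 0.14. Of the rest tested, Pcdh15, C1ql1, Megf11, Cacng4, Zfp488 and Dscaml1 had overlapping groups. They differed by 0.0008, -0.09, -0.04, 0.08, 0.09 and 0.0009, and Sox6 differed by -0.13.

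Genes of premyelinating and myelinating oligodendrocytes did not pass the test. Of 16 on the list 15 were measured, and 5 of these (Mag, Mobp, Enpp6, Bcas1 and Opalin) were under the background guide in both groups. Of the 10 tested, 0 passed in limma in either direction (3 lower and 0 higher at an unadjusted p under 0.05, against 7.69% and 5.73% of all tested genes) and the median difference was 0.00. Ugt8a, which makes myelin galactolipids, differed by -0.51 (limma, adjusted p = 0.0643) and Cnp, an early myelin protein gene, by -0.37 (limma, adjusted p = 0.148). In 3 of the 10 tested, these and Tcf7l2, both mutants lay below both controls, against 21.4% of all tested genes. In 2, Cldn11 and Tspan2, both lay above, against 22.8% of all tested genes.

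The rest of the PDGF receptor pathway showed no gene past the threshold. Of 16 genes, 15 were tested, 0 passed in limma in either direction (0 lower and 1 higher at an unadjusted p under 0.05, against the same shares of all tested genes) and the median difference was 0.03. Pdgfc, another ligand of PDGFRA, was at 8.70 and 8.64 in controls and at 9.21 and 8.86 in mutants, a difference of 0.36 (limma, adjusted p = 0.302). It passed without mutant 2 (limma, adjusted p = 0.00966). Pdgfrb, the receptor of pericytes, differed by -0.07 (limma, adjusted p = 0.794), and Gab1, a docking protein, by -0.16 (limma, adjusted p = 0.385). Pdgfd was dim in both groups.

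Hedgehog signalling induces Olig2 in ventral progenitors. Of 12 genes of that pathway, 10 were tested, with a median difference of -0.17. In limma 1 fell and 0 rose, against 1.01% called lower and 0.0143% called higher among all tested genes. At an unadjusted p under 0.05 in limma, 5 were lower and 0 higher, against 7.69% and 5.73% of all tested genes. Gli3, the transcription factor that acts mainly as a repressor of Hedgehog targets, was at 7.71 and 7.50 in controls and 6.73 and 6.83 in mutants and fell 1.77-fold (limma, adjusted p = 0.0291). That call was lost when dim genes were kept (limma, adjusted p = 0.0784) and with embryo sex as a block (limma, adjusted p = 0.0540). It was also lost with the replicate number as a block (limma, adjusted p = 0.0593). Without control 1 and without control 2 it was lost too, with differences of -0.72 and -0.93. In 7 of the 10 pathway genes both mutants lay below both controls, against 21.4% of all genes tested, among them the coreceptor Gas1 (difference -0.70; limma, adjusted p = 0.0743), Gli2 (-0.26; limma, adjusted p = 0.159) and the transducer Smo (-0.23; limma, adjusted p = 0.213). The target genes Gli1 and Ptch1 differed by 0.03 and -0.08 (limma, adjusted p = 0.914 and 0.678).

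Markers of other cell types were measured beside these genes. Of 9 genes tested on the astrocyte lineage list, 4 fell and 0 rose in limma, against 1.01% and 0.0143% of all tested genes. The median difference was -0.78. The 4 were Slc1a3, Aldoc, Fabp7 and Aldh1l1, lower by between 2.72-fold and 3.04-fold (limma, adjusted p = 0.00538 for each). The other 5 did not pass. Gja1 and Slc1a2 differed by -0.78 and -0.75, with mutant 1 the lower mutant. Atp1b2 and Glul differed by -0.26 and -0.25, and Gfap by 0.04. In 8 of the 9 tested both mutants lay below both controls and in 0 above, against 21.4% and 22.8% of all tested genes. At an unadjusted p under 0.05 in limma, 6 were lower and 0 higher, against 7.69% and 5.73%. The mean level of the list over the 11 genes measured was 9.29 and 9.30 in controls and 8.34 and 8.56 in mutants. S100b, dim on all arrays, and Aqp4, at 6.59 in controls and 5.70 in mutants, were not tested. Several of these genes are also expressed by radial glia. Decreases were thus measured in other glial genes too, and the part of a wider glial change in the values of the OPC genes was not tested.

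Fibroblasts of the meninges also express Pdgfra. Of 7 of their markers 5 were tested and 0 passed in limma, also at an unadjusted p under 0.05, with a median difference of 0.05; Lum and Aldh1a2 were dim in both groups. The mean level of that list was between 6.68 and 6.70 in controls and between 6.65 and 6.76 in mutants. Col1a1 and Col1a2 differed by 0.02 and 0.08, whereas Dcn was low in mutant 1 only, at 6.70 against 7.84 in mutant 2 and 7.84 and 7.81 in controls. Endothelial markers had a median difference of 0.03 with 0 of 7 past limma's test, adjusted or unadjusted.

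Microglial markers had a median difference of -0.25 with 0 of 5 tested past limma's adjusted threshold and 3 lower at an unadjusted p under 0.05, against 7.69% of all tested genes. In 4 of the 5 both mutants lay below both controls, against 21.4% of all tested genes. The mean level of the 7 microglial genes measured was 7.02 and 7.01 in controls and 6.83 and 6.87 in mutants. Of 5 choroid plexus markers 2 were tested and 0 passed in limma, adjusted or unadjusted. Ttr, the transthyretin of choroid plexus, was at 9.15 in control 2 and between 6.50 and 7.17 on the other arrays, while Kcnj13, Otx2 and Clic6 were dim.

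Markers of region were measured too. Dorsal cortex markers were present in both groups, with Emx1 at 8.72 and 8.76, Tbr1 at 10.99 and 11.11 and Neurod6 at 12.04 and 12.08 (means of controls and mutants), and 0 of 7 passed in limma (2 lower and 1 higher at an unadjusted p under 0.05, against 7.69% and 5.73% of all tested genes). Emx2 was at 7.80 and 7.86 in controls and at 6.70 and 7.56 in mutants (limma, adjusted p = 0.363). Pax6 was at 9.20 and 9.18 in controls and at 8.93 and 9.02 in mutants (limma, adjusted p = 0.225). In 2 of the 7, Pax6 and Emx2, both mutants lay below both controls, against 21.4% of all tested genes. In 3, Tbr1, Neurod2 and Bcl11b, both lay above, against 22.8%. Ventral telencephalon and interneuron markers had a median difference of -0.06 with 0 of 8 called in limma (0 lower and 1 higher at an unadjusted p under 0.05, against the same shares). Their mean level was between 8.26 and 8.38 in controls and between 8.24 and 8.35 in mutants. Nkx2-1 was at 6.47 and 6.41 (means of controls and mutants), and Gsx2 was too dim to test. Because the list includes interneuron genes, its level does not check whether ventral tissue was included.

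**Figure D4:**
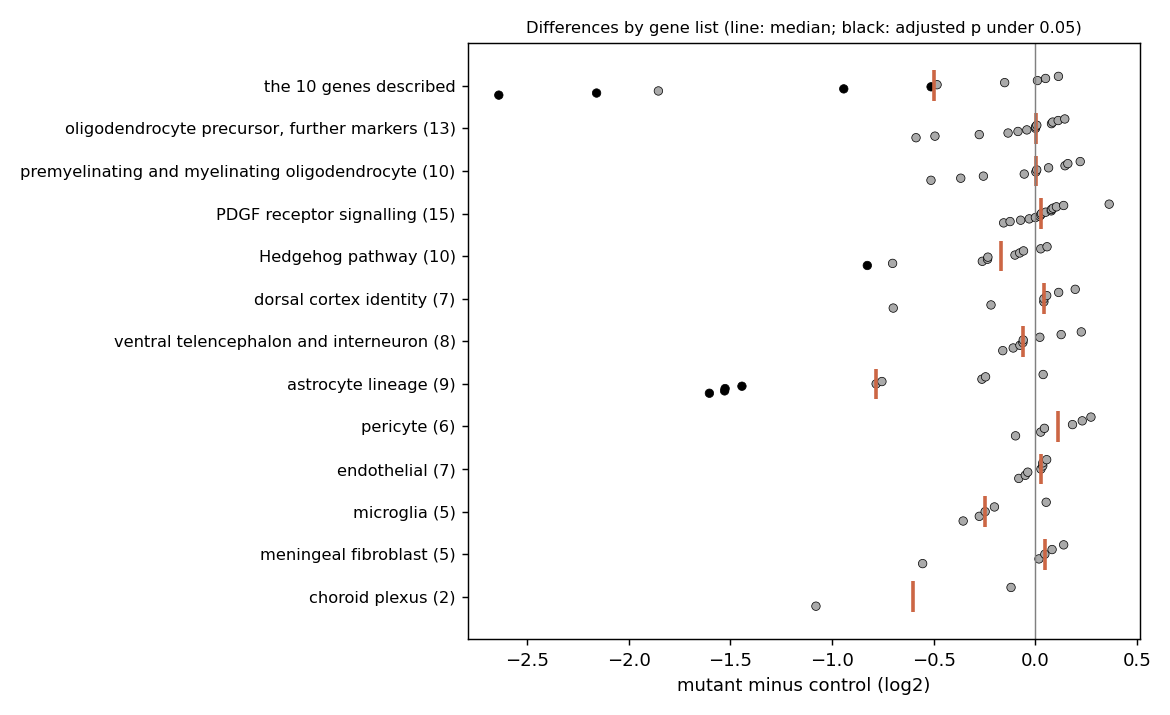
Differences between mutant and control (horizontal axis, log2) for the tested genes of each list, with the number tested in parentheses; the orange line is the list's median and black points have an adjusted p under 0.05. The 10 genes (median -0.50) and the astrocyte lineage list (median -0.78) hold 4 called genes each and the Hedgehog list 1, and the other lists hold none.

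The targeted gene and the arrays as a whole bear on how these values can be read. Map2k1, which encodes MEK1, was at 8.76 and 8.84 in controls and at 8.50 and 8.73 in mutants (limma, adjusted p = 0.469), and Map2k2, null in both groups by the labels, was at 8.52 and 8.61 on average. The exons that their probes cover are not known here, and these features therefore do not check the labels. Over all tested genes the root mean square difference was 0.149 between the controls, 0.191 between the mutants and 0.178 to 0.230 between a control and a mutant. By Xist and 3 Y-linked genes, control 1 and mutant 2 were female and the other samples male, and the arrays of a group thus came from different embryos.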

How the data were processed

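The authors deposited log2 expression values made with RMA, per the submitters' processing notes; base 2 was inferred from the span of the values. No version of RMA, array software, build or filter is named in these sources. Per the labels' protocols, 200 ng of total RNA per array was labelled with biotin. RMA corrects background, quantile-normalizes the arrays and summarises the probes of a feature, so a shift shared by most genes is removed and differences of dim genes are compressed. No detection flags were used here, and precision is limited by the number of arrays.

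Of 35557 features, 21789 had 1 gene symbol in the platform annotation, 1621 had several and 12147 were not listed there; 21698 of these were matched by Entrez identifier to symbols of RefSeq (GRCm38.p6). The brightest feature of each gene was kept, and genes with a mean under the 30th percentile (6.16) were left out. The contrast of mutant with control was fitted by limma 3.58.1 (lmFit, then eBayes with no trend and no covariate; R 4.3.3), which left 2 residual and 3.31 prior degrees of freedom. P-values were Benjamini-Hochberg adjusted over the 13956 genes tested, and calls were made at 0.05. The fit was tested on simulated data.

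The members, gene lists and tests were chosen with earlier results of these data known. Named are the 10 genes, Map2k1 and Map2k2, the called genes of each list, and the 5 genes nearest to Pdgfra. For lists without a called gene, the 2 with the smallest p were to be named, which was done for only some lists. Other genes were named after their values were seen. Samples labelled as replicates served as replicates. P-values rest on the spread between these samples, which limma moderates towards the spread pooled over all tested genes. Alternatives were other filters, the mean of a gene's features, median centring, further quantile normalization, an intensity trend, a replicate block and leaving out each array.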

Additional observations from a re-analysis of the deposited data

How the results depend on the processing

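Among the 10 genes, the number called lower (4) was 1 when dim genes were kept, between 1 and 6 when 1 array was left out, and 4 with the replicate number as a block. Without control 1 it was 2 (Pdgfra and Olig1) and without control 2 it was 1 (Pdgfra). With the crossed pairing, which pairs control 1 with mutant 2 (both female) and control 2 with mutant 1 (both male) and is thus a block by embryo sex, added after seeing the data because same-numbered arrays deviated in opposite directions (correlation -0.16 over genes), 1 of the 10 genes, 17 genes in all lower and 0 higher were called. None of the 10 was called higher under any of the 12 settings. The number of all genes called lower (141) was 15 with dim genes kept, 217 with an intensity trend, 113 with the replicate block, and between 9 and 731 with 1 array left out. The number called higher (2) was 0 with dim genes kept, 11 under the stricter filter, 1 after further quantile normalization, 21 with an intensity trend, 3 with the replicate block, and between 0 and 150 with 1 array left out. Without control 1 and without control 2, 9 genes were called lower in each case, without mutant 1 there were 230, and without mutant 2 there were 731; leaving out an array leaves fewer residual degrees of freedom and assumes that the lone sample of a group varies like the other pair. The cause of the other changes was not tested.

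Some uncalled differences changed sign when 1 array was left out. Over these fits Cspg4 ran from -0.045 (without control 1) to 0.065 and was -0.0083 without mutant 2, Nkx2-2 from -0.39 to 0.085 (without mutant 2), Kdr from -0.25 to 0.086 (without mutant 1), Dcn from -1.12 to 0.013 (without mutant 1) and Ttr from -2.32 to 0.16 (without control 2). The replicate block took Olig2 (adjusted p = 0.0374 in limma) and Sox8 (adjusted p = 0.0481 in limma) past the threshold and Gng12 (adjusted p = 0.0684 in limma) and Gli3 (adjusted p = 0.0593 in limma) out of it. Under the stricter filter Olig2, Gpr17, Cspg4 and Nkx2-2 were too dim to be tested. Whether the low signal of Pdgfra, Olig2 and Gpr17 in mutants limited the size of their differences was not tested.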
